A study of Homo sapiens with 6 samples.

Results

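The nuclear genes of oxidative phosphorylation were followed in the human ovarian cancer line OVCAR8 after 72 h with DMSO or with 2 nM pladienolide B. The members were chosen by gene symbol alone. They are the subunits named NDUFA, NDUFAB1, NDUFB, NDUFC, NDUFS and NDUFV, the succinate dehydrogenase subunits SDHA to SDHD, the UQCR subunits with CYC1, the COX subunits that most tissues use, and the ATP5 subunits. The rule found 76 members among 38637 genes of the table, and all 76 passed the filter on low values, which 16178 genes passed. Both groups were wild type cells of 1 line with 3 samples each, polyadenylated RNA was sequenced, and pladienolide B, which had been dissolved in DMSO, inhibits SF3B1, a protein of the spliceosome. The labels do not say whether the samples were separate cultures, so p-values measure the spread between these samples, which may be technical.

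Oxidative phosphorylation is carried out by complexes I to V of the inner mitochondrial membrane. Complexes I and II pass electrons from NADH and succinate to coenzyme Q, complex III passes them to cytochrome c and complex IV to oxygen, and complexes I, III and IV pump protons that drive ATP synthesis by complex V. Every subunit of complex II and most subunits of the others are encoded in the nucleus, and several small accessory subunits hold no catalytic centre but are needed for assembly or stability.

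The values are reads per gene that the authors adjusted to a common library size, called adjusted reads here. Fold changes are differences of log2(adjusted reads + 1), pladienolide B minus DMSO, and a gene was called when its adjusted p in limma, with Benjamini-Hochberg adjustment over the 16178 genes, was below 0.05. Recovered reads on genes numbered from 22621338 to 26130882 per sample. The epithelial genes KRT8, KRT18 and PAX8 were at 18593 adjusted reads or more for the keratins and 4011 or more for PAX8 in every sample, while the leukocyte marker PTPRC did not exceed 2.00 and CD3E had no read. Of the 10 epithelial and Mullerian markers listed, 10 passed the filter on low values, against 2 of 6 leukocyte, 3 of 4 endothelial and 4 of 7 fibroblast markers. However, KRT19, WT1, MUC16 and CDH1 stayed below 42 adjusted reads and the fibroblast marker COL1A1 was at 5602 or more. The leukocyte marker CD68 was at 1091 or more in every sample and was called higher (log2 fold change 0.41, limma adjusted p = 2.35e-05).

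The DMSO group was not uniform for these genes. DMSO replicate 2 was the highest DMSO sample for 72 of 76 members, against 41.1% of all genes tested. Its median over the members lay 0.11 above the DMSO mean on the log2 scale, whereas DMSO replicates 1 and 3 lay at -0.061 and -0.050. The pladienolide B samples lay at -0.033, -0.086 and -0.076. Relative to the other DMSO samples, DMSO replicate 2 was 0.17 higher over the members (median log2 difference). The same difference was 0.11 over 1213 tested genes with a canonical transcript under 1000 bases and -0.012 over 7965 genes with 3000 bases or more, and 44 of the 76 members have a canonical transcript under 1000 bases. The part of transcript length in the members' values was not tested. The counts of calls for the complexes, the complex I modules and the pathway lists are therefore also given without this sample where they changed.

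Before the values, promoter sequences are shown for the member with the largest fall and the member with the largest rise, since these mark the ends of the range. They are the 250 bases before the RefSeq start site in GRCh38.p14, 5′ to 3′ on the gene's strand. Capitals mark a CCAAT box (CCAAT on either strand). NDUFA10 was read at chr2:240025343-240025592 on the minus strand and NDUFV3 at chr21:42893059-42893308 on the plus strand.
NDUFA10: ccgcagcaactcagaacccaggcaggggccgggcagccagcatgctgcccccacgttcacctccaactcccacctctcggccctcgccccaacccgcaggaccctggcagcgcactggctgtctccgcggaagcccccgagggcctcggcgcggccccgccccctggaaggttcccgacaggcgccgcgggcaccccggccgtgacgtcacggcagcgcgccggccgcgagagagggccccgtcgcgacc
NDUFV3: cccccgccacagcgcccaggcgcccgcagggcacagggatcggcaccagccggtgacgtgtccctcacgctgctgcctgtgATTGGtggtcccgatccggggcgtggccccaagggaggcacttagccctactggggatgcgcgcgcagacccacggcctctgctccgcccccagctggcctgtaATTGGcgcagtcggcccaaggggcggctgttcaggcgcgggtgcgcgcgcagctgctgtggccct
The NDUFA10 stretch was 76.4% G or C and held neither a CCAAT box nor a match to the motifs GCGCATGC (NRF1), ATGGCGG (YY1) or CCGGAAG (the ETS family, which includes GABP) on either strand. The NDUFV3 stretch was 72.8% G or C and held a pair of CCAAT boxes and no match to the other 3 motifs. Outside the stretch shown, a YY1 match began 21 bases after the NDUFV3 start site, counted from 1.

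The NRF1, YY1 and ETS motifs were more frequent in members' promoters than in those of tested genes at large. A RefSeq promoter of 300 bases, from 250 before to 50 after the start, was found for 62 members and for 12198 tested genes. The NRF1 motif, named for a transcription factor of many respiratory genes, was in 13 of 62 members' promoters (21.0%) and in 5.26% of all. The YY1 motif was in 19 (30.6%) and in 9.40% of all, and the ETS motif in 19 (30.6%) against 17.8%. The SP1 motif GGGCGG was in 36 (58.1%) against 68.2%, the CCAAT box in 20 (32.3%) against 36.3% and the TATA box TATAAA in 6 (9.68%) against 6.06%. A match describes letters in this window and is not a binding site, and these shares were not tested.

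The NRF1 motif stood in promoters of members that moved in either direction. It was in 4 of 22 members called lower, 3 of 7 called higher and 6 of 33 not called. All 7 called members with it are shown, each with 30 bases around the match (1 of the 2 matches for COX6A1) and the motif in capitals, which run on where it overlaps its own reverse complement GCATGCGC.
NDUFS7, lower: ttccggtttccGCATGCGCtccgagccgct
SDHB, lower: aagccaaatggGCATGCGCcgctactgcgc
ATP5F1C, lower: ggggagcttcgGCGCATGCGCgctgaggcc
ATP5ME, lower: cgccgctgacgGCGCATGCgtgcgcccagc
NDUFS6, higher: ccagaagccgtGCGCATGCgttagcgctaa
NDUFA8, higher: tgttgccggatGCGCATGCGCaggcgccgt
COX6A1, higher: ggagggcacacGCATGCGCacgaaggaaac
NDUFS7, NDUFS6, SDHB and COX6A1 also held the YY1 motif, which began 21, 12, 14 and 15 bases after the start site, counted from 1. It is shown for NDUFS7, which fell, and NDUFS6, which rose.
NDUFS7, lower: ccgaggccaagATGGCGGtgctgtcaggtg
NDUFS6, higher: agcggcgcaaaATGGCGGcggcgatgacct
In both complex I genes, which changed in opposite directions, the motif lay within the first 50 bases of the transcript. Its letters begin with ATG, and whether a match lay at the start codon of the protein was not checked. The YY1 motif was in 7 of 22 members called lower, 4 of 7 called higher and 8 of 33 not called.

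Pladienolide B changed the members in both directions and by little. Of the 76 members, 24 were called lower (31.6%) and 9 higher (11.8%), against 25.2% and 22.4% of all genes tested, and 43 were not called. The share called in either direction was 43.4%, against 47.6% of all genes. The members' median log2 fold change was -0.065, against -0.0042 over all genes tested, and it was smaller than the SD of 0.072 between replicates of a group in the same median. Fold changes ran from -0.79 for NDUFA10 to 0.35 for NDUFV3. No member was called with at least a 2-fold change, against 3.93% of all genes. The groups did not overlap for 36 members, 27 lower and 9 higher. Over all 16178 genes tested they did not overlap for 8941 (55.3%), 4667 lower and 4274 higher.

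**Figure D1:**
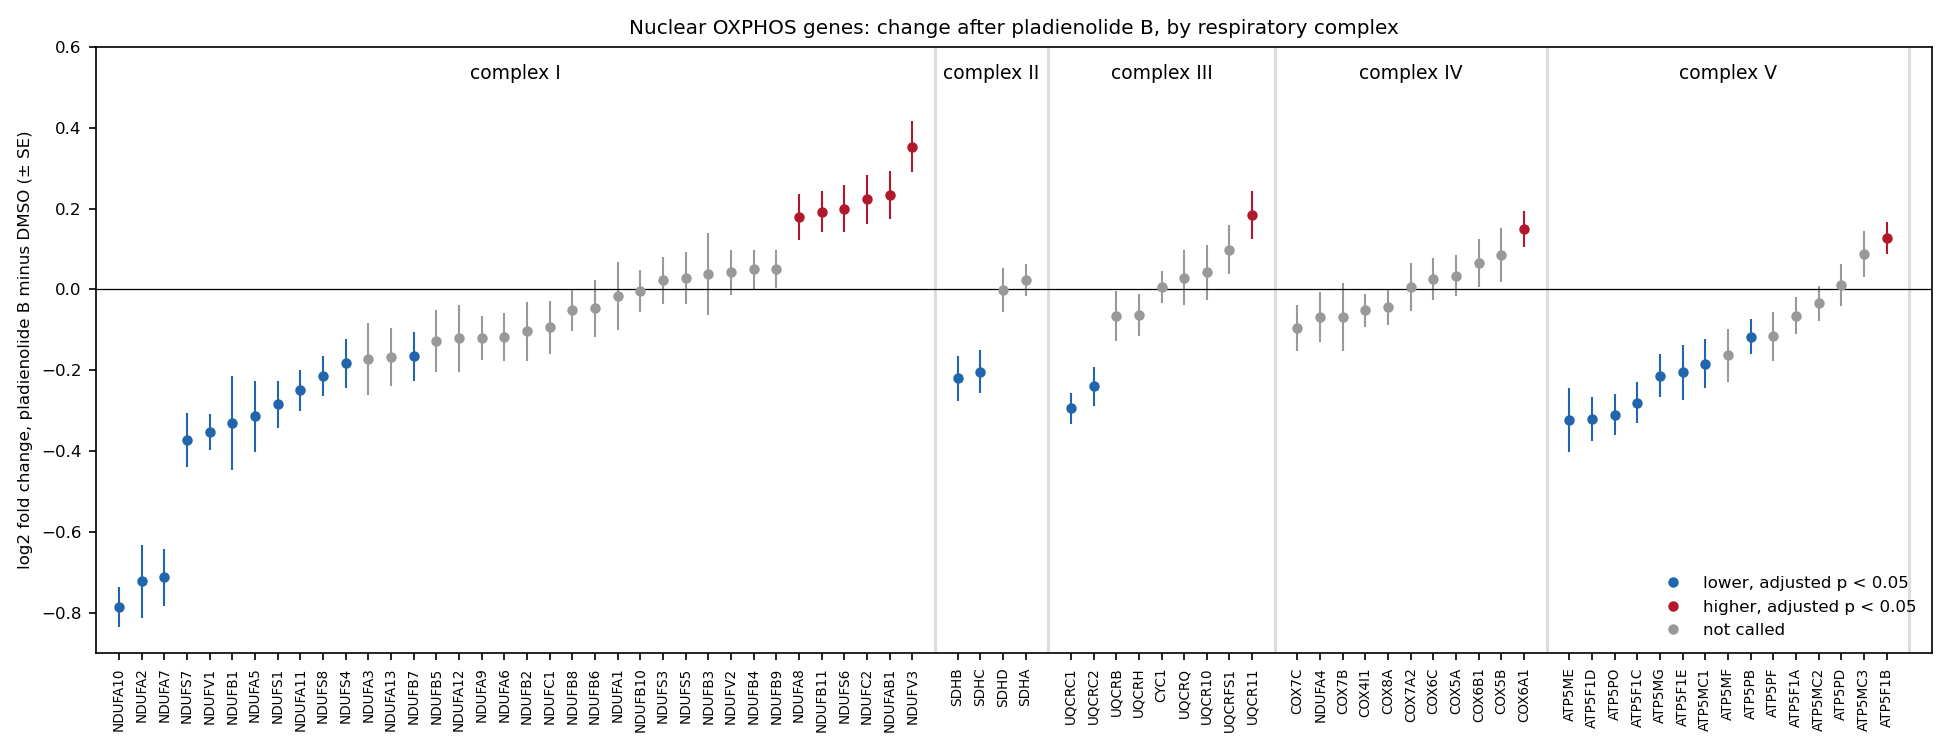
Log2 fold change (pladienolide B minus DMSO, vertical axis, bars show 1 SE, n = 3 per group) of 75 of the 76 members, grouped by complex and ordered by size, with blue for called lower, red for called higher and grey for not called. Complexes I and V, with 37 and 15 of the 76 members, hold 20 of the 24 members called lower, and complex IV, with 11, holds none. Of all genes tested, 25.2% were called lower. Without DMSO replicate 2, complexes I and V hold 9 and 5 of the 18 called lower.

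Without DMSO replicate 2, 18 members were called lower (23.7%) and 13 higher (17.1%), against 24.5% and 23.1% of all genes in that fit, and the median was -0.012. The 18 were all among the 24, and the 9 higher members were all kept. NDUFS4, NDUFB1, NDUFB7, ATP5F1E, ATP5MC1 and ATP5PB were no longer called, and NDUFV2, UQCRFS1, COX5B and ATP5MC3 were then called higher. Each of the 6 that lost the call also lost it in at least 1 other fit that left out a sample. The fold change was higher without this sample in 73 of 76 members. In the 6 fits that each left out 1 sample, 18 members were called lower and 4 higher every time. limma without its variance trend called 15 lower and 2 higher.

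**Figure D2:**
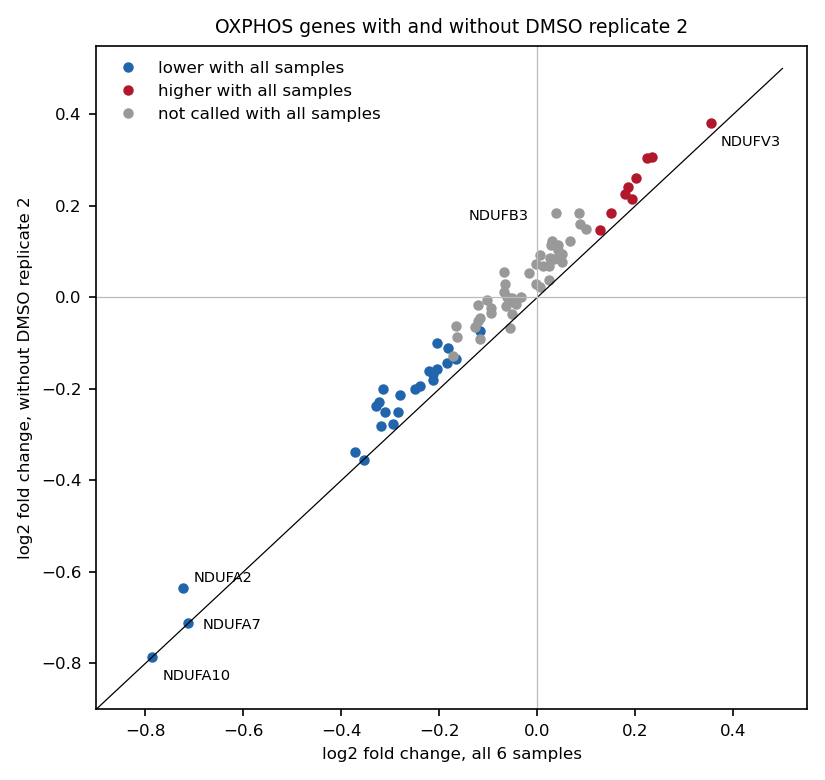
Log2 fold change of each member with all 6 samples (horizontal axis) and without DMSO replicate 2 (vertical axis), coloured by the call with all samples, with the line of equal values. Nearly all points lie above the line (73 of 76), NDUFA10 and NDUFA7 lie on it at -0.79 and -0.71, and NDUFB3 moves from 0.04 to 0.18.

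Complex I, the NADH dehydrogenase, had the widest spread. Counts of calls by complex and by module are to be read against the 25.2% lower and 22.4% higher of all genes tested. Of the 37 nuclear subunits of complex I here, 12 were called lower (32.4%) and 6 higher (16.2%), with a median of -0.10 on the log2 scale (NDUFA4 is counted with complex IV, to which it is now assigned). Without DMSO replicate 2 these counts were 9 and 7, with a median of -0.034. The sum of their adjusted reads was 54185, 59852 and 53943 in the DMSO samples and 53482, 52109 and 52678 in the pladienolide B samples. The groups did not overlap in this sum, though the nearest samples differed by less than the spread within DMSO.

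NDUFA10, an accessory subunit of the membrane arm that faces the matrix (chr2:239892442-240025343, minus strand), fell most. It had 1952, 1905 and 1867 adjusted reads with DMSO and 1108, 1106 and 1103 with pladienolide B. Both groups were tight and far apart, at 58.0% of the DMSO mean, with a log2 fold change of -0.79 ± 0.049 (SE, adjusted p = 1.63e-09, limma).

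NDUFA2, an accessory subunit of the NADH-oxidising N module (chr5:140645285-140647630, minus strand), had 506, 632 and 550 adjusted reads with DMSO and 347, 311 and 361 with pladienolide B. Every treated sample lay below every DMSO sample, and the log2 fold change was -0.72 ± 0.091 (adjusted p = 5.80e-06). NDUFA7, an accessory subunit of the quinone-reducing Q module (chr19:8308595-8321375, minus strand), had 734, 783 and 830 against 494, 481 and 455. Again the groups did not overlap, with -0.71 ± 0.070 (adjusted p = 3.72e-07). These 3 genes stood apart from the next fall, -0.37 for NDUFS7, and were called in all 6 fits that left out 1 sample.

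In the catalytic core of the matrix arm, no fall was as large as in NDUFA10, NDUFA2 or NDUFA7. The core's median log2 fold change was -0.21, a larger fall than the -0.10 over complex I. Without DMSO replicate 2 these medians were -0.18 and -0.034. Of the core's 7 nuclear subunits, 4 were called lower and 0 higher (0 also at an unadjusted p below 0.05 in limma and in edgeR and DESeq2, and NDUFV2 alone was called higher without DMSO replicate 2). NDUFV1, which binds NADH and the flavin, had 3714, 3579 and 3500 adjusted reads with DMSO and 2741, 2802 and 2906 with pladienolide B, a log2 fold change of -0.35 ± 0.044 (adjusted p = 5.33e-06). NDUFS1, the largest iron-sulfur subunit, had 1945, 2035 and 1850 against 1589, 1484 and 1716, or -0.28 ± 0.058 (adjusted p = 6.15e-04). Neither gene's groups overlapped, and both calls held in all 6 fits that left out 1 sample. NDUFS7 (-0.37) and NDUFS8 (-0.21), iron-sulfur subunits near the quinone site, were also lower. NDUFV2, a subunit of the NADH-oxidising part, was at 0.04 and not called.

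The modules of complex I differed in their counts. In the N module, 4 of 8 subunits were called lower and 2 higher, with a median of -0.15 on the log2 scale. Without DMSO replicate 2 there was no excess of lower calls in the N module, with 3 lower, 3 higher and a median of -0.065. In the Q module 4 of 8 were lower and 0 higher (0 at an unadjusted p below 0.05 and in edgeR and DESeq2 too), with a median of -0.17. The proximal membrane arm had 2 lower and 2 higher of 9 and a median of -0.094. The distal arm, which holds most NDUFB subunits, had 2 lower and 2 higher of 12 and a median of -0.025, and without DMSO replicate 2 none of its subunits was called lower. These counts were not compared by a test.

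NDUFV3, a small accessory subunit of the N module (chr21:42893271-42913299, plus strand), rose most. It had 627, 679 and 659 adjusted reads with DMSO and 868, 812 and 831 with pladienolide B, or 128% of the DMSO mean. The groups were well separated, with a log2 fold change of 0.35 ± 0.063 (adjusted p = 1.96e-04).

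NDUFAB1, the mitochondrial acyl carrier protein, which also serves fatty acid and lipoate synthesis, had 1471, 1705 and 1461 adjusted reads with DMSO and 1878, 1814 and 1749 with pladienolide B. It rose by 0.23 ± 0.060 on the log2 scale (adjusted p = 4.07e-03), and by 0.31 without DMSO replicate 2, the sample nearest to the treated ones. NDUFC2, a membrane arm subunit, had 1535, 1853 and 1597 against 1939, 1955 and 1904, a change of 0.22 ± 0.061 (adjusted p = 6.24e-03). It overlaps the readthrough gene NDUFC2-KCTD14, listed at 1473 and 1748 adjusted reads (group means) and also called higher (0.25), so how reads were divided between them is uncertain. NDUFB11 (0.19), NDUFS6 (0.20) and NDUFA8 (0.18) were the other complex I subunits called higher. NDUFS6 lost its call without DMSO replicate 3 (adjusted p = 0.0658), and NDUFA8 without DMSO replicate 3 or pladienolide B replicate 2 or 3 (0.0628 to 0.0981).

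Complex II, which oxidises succinate and also belongs to the tricarboxylic acid cycle, had 2 of 4 subunits lower (50.0%) and 0 higher. The number higher was 0 also at an unadjusted p below 0.05 and in edgeR and DESeq2. SDHB, the iron-sulfur subunit, had 1995, 2301 and 2077 adjusted reads with DMSO and 1858, 1736 and 1869 with pladienolide B, a log2 fold change of -0.22 ± 0.056 (adjusted p = 3.79e-03). SDHC, a membrane anchor with part of the quinone site, had 1774, 1955 and 1772 against 1650, 1561 and 1561, or -0.20 ± 0.053 (adjusted p = 4.35e-03). Both genes were lower in every treated sample and were called in all 6 fits that left out 1 sample, though SDHB was not called by limma without its variance trend.

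SDHA, the flavin subunit that binds succinate, had 7304, 7451 and 7166 adjusted reads with DMSO and 7432, 7228 and 7609 with pladienolide B. The groups overlapped, and the log2 fold change of 0.02 ± 0.040 was not called (adjusted p = 0.671). SDHD, the other membrane anchor, was at -0.002 and not called. Pseudogene rows SDHAP1, SDHAP2 and SDHAP3 were listed at 292, 226 and 224 adjusted reads on average, at most 3.97% of SDHA, and how reads were divided between these copies is uncertain.

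Complex III, the cytochrome bc1 complex, had 2 of 9 subunits lower (22.2%) and 1 higher (11.1%), with a median of 0.006 on the log2 scale. Without DMSO replicate 2 the number higher in complex III was 2. The core proteins of the complex fell. UQCRC1 (chr3:48599002-48609664, minus strand) had 7424, 7607 and 7250 adjusted reads with DMSO and 6120, 5974 and 6070 with pladienolide B, a log2 fold change of -0.29 ± 0.039 (adjusted p = 1.02e-05). UQCRC2 had 3663, 3943 and 3510 against 3058, 3133 and 3212, or -0.24 ± 0.048 (adjusted p = 5.50e-04). Neither gene's groups overlapped, and for UQCRC1 the gap between the nearest samples was larger than the spread within either group.

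The subunits of complex III that carry electrons were not called. CYC1, cytochrome c1, had 6213, 6383 and 6142 adjusted reads with DMSO and 6386, 6092 and 6336 with pladienolide B, with overlapping groups and a log2 fold change of 0.01 ± 0.040 (adjusted p = 0.923). UQCRFS1, the Rieske iron-sulfur protein, had 1519, 1717 and 1570 against 1757, 1584 and 1805, or 0.10 ± 0.060 (adjusted p = 0.191), and was called higher without DMSO replicate 2 (0.15, adjusted p = 0.0304). UQCR11, a small accessory subunit, was the 1 member of the complex called higher, with 1123, 1269 and 1132 against 1338, 1281 and 1382 and a change of 0.18 ± 0.059 (adjusted p = 0.0163). DMSO replicate 2 lay just under the lowest treated sample, and the call was lost without DMSO replicate 1 or 3 or pladienolide B replicate 3 (adjusted p from 0.0694 to 0.0765).

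In complex IV, cytochrome c oxidase, 1 subunit was called, and 2 were without DMSO replicate 2, all of them higher. Of its 11 nuclear subunits here, including NDUFA4, 0 were called lower in limma, and 0 also at an unadjusted p below 0.05 and in every other tool run. The fold changes ran only from -0.096 (COX7C) to 0.15 (COX6A1) on the log2 scale, with a median of 0.005. The sum of their adjusted reads was 29832, 34051 and 30593 with DMSO and 31910, 30900 and 31233 with pladienolide B, so the treated samples lay within the DMSO range.

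COX6A1, a regulatory subunit at the outer side of the enzyme, was the member of complex IV called higher. It had 2807, 3011 and 2791 adjusted reads with DMSO and 3214, 3159 and 3170 with pladienolide B, a log2 fold change of 0.15 ± 0.045 (adjusted p = 0.0109). The groups did not overlap, and the call was lost without DMSO replicate 1 or 3 (adjusted p = 0.0525 and 0.0568). COX5B, a zinc-binding subunit, had 2578, 3295 and 2796 against 2952, 3080 and 3117. DMSO replicate 2 was the highest of all 6 samples for this gene, and without it COX5B was called higher (0.18, adjusted p = 1.84e-03, against 0.08 and not called with all samples).

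Complex V, the ATP synthase, had 8 of 15 subunits called lower (53.3%) and 1 higher (6.67%), with a median of -0.16 on the log2 scale. Without DMSO replicate 2 it had 5 lower and 2 higher, with a median of -0.090. ATP5F1B, the catalytic beta subunit (chr12:56638175-56645984, minus strand), was the most abundant member and rose while the 8 others called were lower. It had 21798, 22479 and 21219 adjusted reads with DMSO and 24008, 23341 and 24143 with pladienolide B, a log2 fold change of 0.13 ± 0.040 (adjusted p = 0.0142). The groups did not overlap, and the call was lost without DMSO replicate 3 or pladienolide B replicate 1 or 3 (adjusted p from 0.0521 to 0.0831). ATP5F1A, the alpha subunit that alternates with it in the F1 head, had 5295, 5880 and 5414 against 5387, 5204 and 5254, with overlapping groups and -0.06 ± 0.045 (adjusted p = 0.251).

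The central stalk subunits of the F1 part were lower. ATP5F1D, the delta subunit, had 1590, 1684 and 1518 adjusted reads with DMSO and 1299, 1230 and 1308 with pladienolide B, a log2 fold change of -0.32 ± 0.054 (adjusted p = 1.25e-04). ATP5F1C, the gamma subunit that turns inside the head, was at -0.28 ± 0.051 (adjusted p = 2.44e-04). ATP5F1E, the epsilon subunit, was at -0.21 ± 0.068 (adjusted p = 0.0199) with all samples and was not called without DMSO replicate 2 (-0.10, adjusted p = 0.0642) or without pladienolide B replicate 2 or 3 (0.0605 and 0.0827). It overlaps the readthrough gene SLMO2-ATP5E, listed at 2479 and 2544 adjusted reads, and the division of reads between them is uncertain.

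Of the 10 other subunits of the stalk, membrane part and ring, 5 were called lower and 0 higher, with 0 also at an unadjusted p below 0.05 and in edgeR and DESeq2. Without DMSO replicate 2, 3 were lower and 1 higher. ATP5ME, subunit e, which helps join synthases into dimers, had 636, 797 and 676 adjusted reads with DMSO and 571, 561 and 545 with pladienolide B, a log2 fold change of -0.32 ± 0.079 (adjusted p = 2.88e-03). ATP5PO, the peripheral stalk protein OSCP, had 2807, 3187 and 2816 against 2375, 2368 and 2350, or -0.31 ± 0.051 (adjusted p = 9.77e-05). The treated samples of both genes agreed closely and lay below every DMSO sample. ATP5MG, subunit g, was at -0.21. ATP5PB, the peripheral stalk subunit b and the third most abundant member, had 6790, 7510 and 6943 against 6669, 6402 and 6505 and was at -0.12 ± 0.044 (adjusted p = 0.0374). Its call was lost without DMSO replicate 2 or 3 or any 1 of the pladienolide B samples (0.0547 to 0.123).

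The c ring is encoded by 3 genes that give the same mature protein. ATP5MC1 was called lower at -0.18 on the log2 scale, ATP5MC2 was at -0.03 and ATP5MC3 at 0.09, neither of which was called. ATP5MC1 lost its call without DMSO replicate 2 (-0.14, adjusted p = 0.0562) or without pladienolide B replicate 1 (-0.14, adjusted p = 0.109). Without DMSO replicate 2, ATP5MC3 was called higher (0.16, adjusted p = 3.46e-03). ATP5MC2 had the most adjusted reads per kilobase of canonical transcript of the 3 with DMSO, at 6894, against 1631 for ATP5MC1 and 1147 for ATP5MC3.

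**Figure D3:**
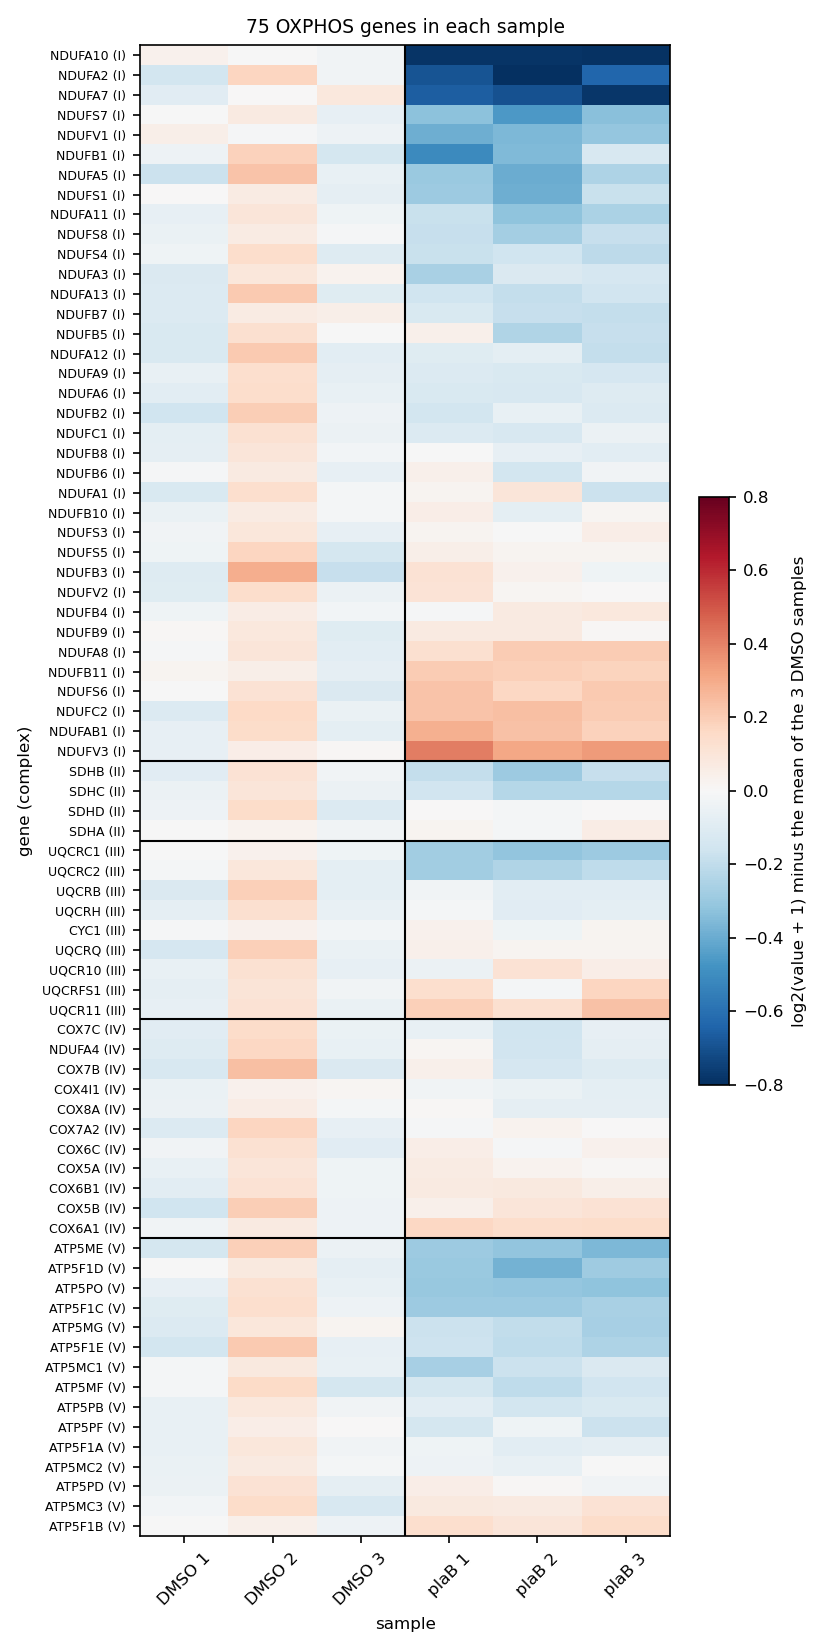
Each row is 1 of 75 members (complex in parentheses), each column a sample (plaB is pladienolide B), and the colour gives log2(adjusted reads + 1) minus the mean of the 3 DMSO samples. NDUFA10, NDUFA2 and NDUFA7 are darkest in the treated samples, and DMSO replicate 2 is red in nearly all rows, as the highest DMSO sample for 72 of 76 members.

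Levels and gene structure were compared with the fold changes as a description. Per kilobase of canonical transcript, ATP5F1B had the most adjusted reads with DMSO, at 12411, followed by NDUFB9 at 7458 and COX4I1 at 7294, and NDUFV3 had the fewest, at 114. A canonical transcript is 1 isoform of the GENCODE annotation and may not be the one most used in these cells. Across the 76 members, Spearman's rho of the log2 fold change was 0.086 with the mean DMSO value, -0.30 with the number of exons, -0.039 with transcript length and -0.13 with gene span. Over 15059 tested genes with an annotation the values were -0.10, -0.082, 0.020 and -0.047. The points share libraries, and genes are not independent replicates. The members called lower had a median of 5.5 exons and the members called higher or not called a median of 4. Of the 19 members with 7 exons or more, 11 were called lower and 1, ATP5F1B, higher. Of all 76 members 31.6% were called lower, and of all genes tested, whatever their exons, 25.2%. The bound of 7 exons was not planned beforehand, and the count by exons was not tested.

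Other genes of the pathway also changed in both directions, and COX20, ETFA, POLG and PPARGC1A by more than any of the 76 members. The shares called in the larger lists are to be read against the 25.2% lower and 22.4% higher of all genes tested, since several lay near them. Of 18 complex I assembly factors, 5 were called lower (27.8%) and 3 higher (16.7%), or 4 and 3 without DMSO replicate 2. TMEM126B, part of the assembly complex for the membrane arm, fell from 1253 ± 154 to 827 ± 67.1 adjusted reads (mean ± SD, n = 3; log2 fold change -0.60, limma adjusted p = 1.08e-05). NDUFAF1, of the same assembly complex, rose from 249 ± 24.7 to 383 ± 11 (0.62, adjusted p = 4.07e-05), and NDUFAF4 rose by 0.56 on the log2 scale. Partners in 1 assembly complex thus changed in opposite directions.

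Of 24 complex IV assembly factors, 7 were called lower (29.2%) and 5 higher (20.8%), or 6 and 6 without DMSO replicate 2, while 0 of the nuclear subunits listed were lower. COX20, a chaperone of the COX2 subunit, fell from 1766 ± 83.1 to 920 ± 27.4 adjusted reads, a log2 fold change of -0.94 (adjusted p = 7.52e-10). PET100 (-0.58) and COX19 (-0.52), which also serve assembly of the enzyme, were lower as well. Of 6 complex III factors, TTC19 was lower (-0.63) and BCS1L, which inserts the Rieske protein, was higher (0.43), and 2 were higher without DMSO replicate 2. SDHAF2, which aids flavin attachment to SDHA, was the 1 of 4 complex II factors called (0.31). Of 5 ATP synthase factors, TMEM70 was higher (0.50), and ATPAF2 (-0.24) and the inhibitor ATP5IF1 (-0.20) were lower, though ATP5IF1 was not called without DMSO replicate 2 (adjusted p = 0.0569).

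Of 8 carriers and other enzymes that feed coenzyme Q, 2 were lower and 1 higher. ETFA, which with ETFB takes electrons from fatty acid oxidation, fell from 2584 ± 135 to 1441 ± 102 adjusted reads (-0.84 on the log2 scale, adjusted p = 4.53e-09). ETFB was at -0.27, and DHODH of pyrimidine synthesis was at 0.27. In coenzyme Q synthesis, 6 of 13 genes were lower and 3 higher (5 and 3 without DMSO replicate 2), led by COQ2 (-0.64), COQ8B (-0.59) and COQ3 (-0.50). Of 7 genes for adenine nucleotide and phosphate carriers and pore proteins, 2 were lower and 0 higher (1, the pore protein VDAC2, was higher at an unadjusted p below 0.05 and was called by DESeq2, limma-voom and edgeR with RLE or upper-quartile factors, and 2 were called higher without DMSO replicate 2). The lower ones were the muscle-type adenine nucleotide carrier SLC25A4 (-0.24) and the phosphate carrier SLC25A3 (-0.17). Of the 18 tricarboxylic acid cycle genes, 6 were lower and 4 higher (7 and 4 without DMSO replicate 2), and SUCLG2 (-0.63), IDH3G (-0.63) and PDHA1 (-0.50) changed most. Of 12 subunits outside the rule, 5 passed the filter on low values and 0 were called in limma (1 at an unadjusted p below 0.05, 1 without DMSO replicate 2).

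Of 10 nuclear regulators of mitochondrial genes, 3 were lower and 4 higher. PPARGC1A, a coactivator of mitochondrial biogenesis, rose from 18.9 ± 6.04 to 77.4 ± 5.90 adjusted reads, a log2 fold change of 2.02 ± 0.25 (adjusted p = 4.37e-06), from a level of few reads. Its relative PPARGC1B rose by 0.46, and NRF1, the factor for which the promoter motif is named, fell by 0.44. Of 13 genes for mitochondrial DNA transcription and replication, 3 were lower and 6 higher. POLG, the catalytic subunit of the mitochondrial DNA polymerase, fell from 1804 ± 12 to 829 ± 38.9 adjusted reads (-1.12, adjusted p = 8.01e-11), MTERF2 was at -0.50, and the transcription factor TFB2M was at 0.45. The 13 subunits encoded in mitochondrial DNA were not analysed here, since the table held 0 of them by the symbols searched.

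**Figure D4:**
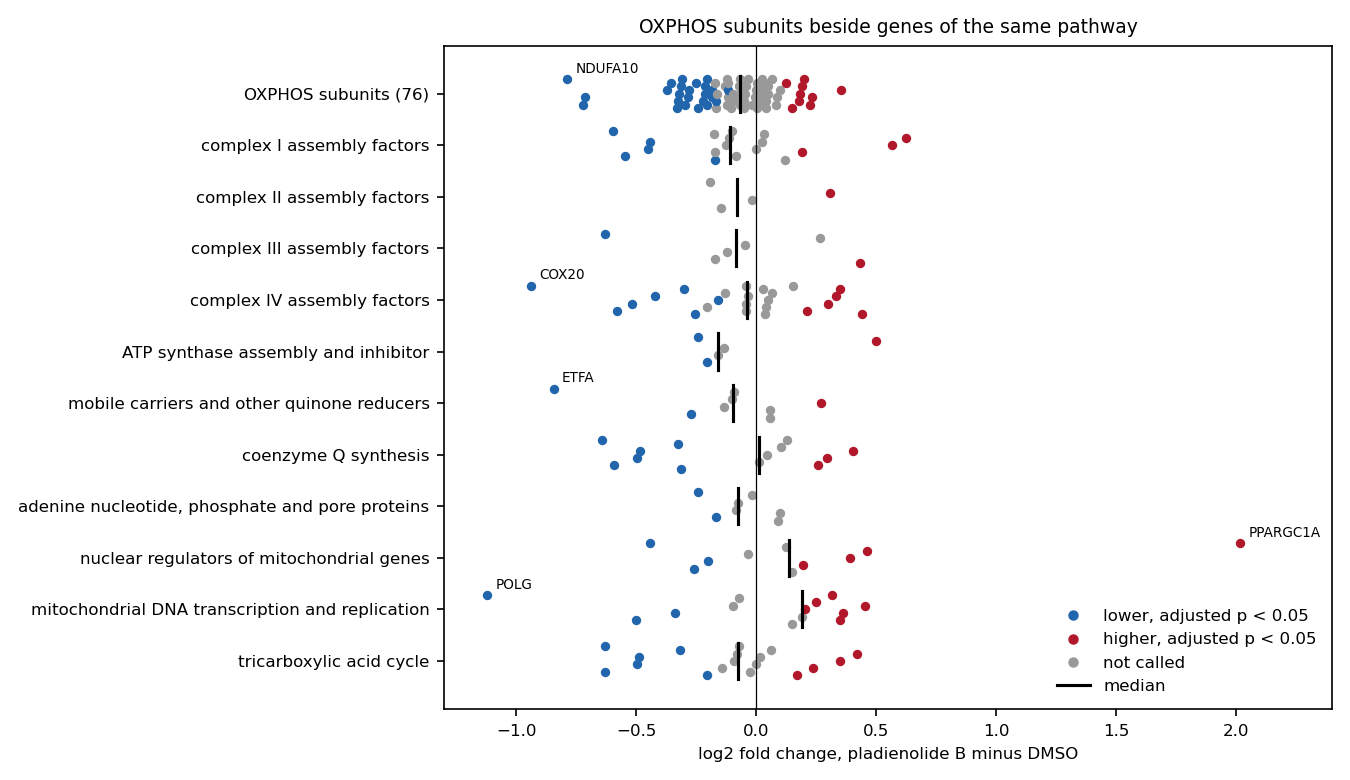
Log2 fold change (horizontal axis) of the 76 members and of the tested genes of each pathway list (rows), with blue for called lower, red for called higher, grey for not called and a black bar at the list's median. The members lie between -0.79 and 0.35, while PPARGC1A reaches 2.02 and POLG -1.12.

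Some members share their position with other genes, and the sources do not say whether reads were assigned by strand. Of the 76, 31 overlap another gene of the table and 21 overlap one that passed the filter on low values. NDUFB11 lies against RBM10 on the opposite strand (2119 and 2419 adjusted reads, called higher at 0.19), NDUFS6 against MRPL36 (606 and 724, called higher at 0.26) and NDUFA2 against TMCO6 (179 and 158, not called). Reads from such a pair cannot be told apart without strand. ATP5MF overlaps the readthrough gene ATP5MF-PTCD1 (777 and 904 adjusted reads, called higher at 0.22) and was itself at -0.16, not called (adjusted p = 0.0512).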

How the data were processed

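Messenger RNA of OVCAR8 cells was sequenced in 3 DMSO and 3 pladienolide B samples. The methods state trimming, alignment to hg38 with hisat2 and testing with DESeq2, while the submitters' processing notes list hg19, HISAT2, HTSeq 0.12.4 and DESeq2. The deposited positions overlap those of GRCh38.p14 for 99.9% of 35902 symbols found in both and were read as GRCh38. The gene models and the use of strand are not given in the sources used here. For each gene the authors deposited 1 signal per sample, which was found to be edgeR's quantile-adjusted count at a common library size. Undoing this adjustment returned whole reads (within 0.02) for 100% of values of 10 or more. A log2 fold change, a p-value and a q-value per gene, which the authors deposited as well, hold their own comparison and were not used. Of the columns of values per sample, 0 were left out.

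limma 3.58.1 with a variance trend was fitted on log2(value + 1), two-sided, over 16178 genes kept by filterByExpr of edgeR 4.0.16 (minimum 10, total 15), with Benjamini-Hochberg adjustment and a threshold of 0.05. The pseudocount of 1 makes changes of genes with few reads smaller. Alternatives on the recovered reads were limma-voom, DESeq2 1.42.0 and the quasi-likelihood test of edgeR under 3 normalizations (TMM, RLE, upper quartile). Others were limma without the trend, other filters and pseudocounts, centring on the median gene, the replicate number as a block and leaving out each sample. limma, limma-voom, edgeR and DESeq2 were each tested on simulated data.

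Promoters are from RefSeq, 1 per gene, at the start nearest to the deposited 5′ end. Exons and lengths are of GENCODE v44 canonical transcripts. Values in every sample are given for the 3 largest called rises and falls of each complex, the 3 most abundant members and the catalytic subunits, and up to 3 called genes with the largest change are named per pathway list. COX5B was given in every sample after its values had been seen. The members and lists were chosen with earlier results of these data known. Of the members, 1 is not reported here by name and is not drawn in the plots of single genes, though it is in the counts.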

Additional observations from a re-analysis of the deposited data

How the results depend on the processing

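With edgeR (TMM, RLE or upper-quartile factors), DESeq2, limma-voom, other filters, pseudocounts of 0.1 or 5, or the median gene set to 0, 22 to 25 members were called lower and 9 higher, and the members' median log2 fold change lay between -0.065 and -0.046. limma without the variance trend called 17 members, 15 lower and 2 higher: 2 of complex I, 0 of complex III, 0 of complex IV and 0 of complex V higher, and 1 of complex II and 4 of complex V lower. The cause was not tested. Fits that each left out 1 sample called 18 to 25 members lower and 4 to 13 higher, with 5 to 8 of complex V lower and 0 to 2 each of complexes III, IV and V higher, and a median from -0.11 to -0.012. The fewest lower and most higher calls came without DMSO replicate 2, and the fewest higher calls without DMSO replicate 3. No pairing by replicate number was seen, as deviations of samples with the same number had correlations of -0.018, -0.018 and 0.0026. With 3 samples per group these values cannot show that the samples were unpaired. With the replicate block, 22 members were lower and 9 higher, with a median of -0.065. Of 2016 values under these alternatives of 112 genes (the members, named pathway genes and called cell type markers), 85 lost and 15 gained significance and 0 of the called ones changed sign. With 3 samples per group the SE of members ran from 0.039 to 0.12 on the log2 scale, and the smallest change called was -0.12 (ATP5PB).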

Other observations

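The mitochondrial chromosome was represented in the table by 24 genes, 2 for rRNA and 22 for tRNA. Its rRNA genes RNR1 and RNR2 are transcribed from the DNA that also encodes the 13 mitochondrial subunits of oxidative phosphorylation, and reads of both rose. Polyadenylated RNA was sequenced, and how much rRNA and tRNA passed that selection in each sample is not known. The reads of these genes therefore need not follow their transcription or that of the 13 subunits, which was not tested. RNR2, the large ribosomal RNA, had 113320, 119894 and 110950 adjusted reads with DMSO and 152816, 173822 and 132216 with pladienolide B, a log2 fold change of 0.41 ± 0.073 (SE, limma adjusted p = 2.01e-04). RNR1, the small one, had 59698, 59301 and 55991 against 69381, 77353 and 61248, or 0.24 ± 0.064 (adjusted p = 4.65e-03). The treated samples lay above every DMSO sample for both genes and spread more widely among themselves. Of the 15 tRNA genes that passed the filter on low values, 5 were called higher, in a fit that called 22.4% of all genes tested higher, led by TRNM at 1.02 on the log2 scale (adjusted p = 1.52e-07), and TRNP was called lower at -0.21 (adjusted p = 0.0103). These genes were chosen after their values had been seen.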
